A study of Mus musculus with 18 samples.

Results

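TD139 given to mice of either genotype is the subject here: the 5 quadriceps libraries labelled TD139 (3 dyW, 2 wild type) were set against the 6 labelled PBS (3 dyW, 3 wild type), with genotype as a term, and genes were read for a difference of the same direction in both genotypes. These 11 of the series' 18 libraries were chosen by their labels and not by any measured value. dyW mice (strain B6.129S1(Cg)-Lama2tm1Eeng/J) carry a mutant Lama2 in all tissues and so lack normal laminin alpha 2; they are used to study the congenital muscular dystrophy caused by LAMA2 mutations. The wild type (WT) groups are of strain C57BL/6J. A small molecule, TD139 inhibits galectin-3, and PBS is the buffer that the control groups are named for. Each library is bulk poly(A) RNA from the whole quadriceps of 1 mouse. The age label of all 11 mice is 3 weeks, while the protocol text places tissue collection at 5 weeks, and the labels used here give no dose, route or duration of TD139. The other 7 libraries, 4 dyW and 3 WT with an age label of 5 weeks and no treatment in their labels, served only to give the disease difference of the genes named here.

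Galectin-3, the product of Lgals3, is a sugar-binding protein made in quantity by macrophages and by injured tissue, and it is known for promoting inflammation and fibrosis. In muscle without laminin alpha 2 the basement membrane holds fibres poorly, and fibres die, regenerate and are replaced by scar. TD139 occupies the sugar-binding pocket of the protein, so an action on it need not alter the amount of Lgals3 RNA. A drug action that does not need diseased tissue would be sought among genes that differ between TD139 and PBS in healthy and dystrophic muscle alike.

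Some features of the libraries touch every result. Depth ran from 15.8 to 42.6 M exon reads per library. Lama2, the mutated gene, read 0.652 to 1.10 RPKM (reads per kilobase of exon, scaled to library size) in the 6 dyW libraries and 2.18 to 4.58 RPKM in the 5 WT libraries, so genotype labels and transcript did not overlap. The sex label disagreed with the transcripts Xist and Ddx3y in 8 of these 11 libraries and in 0 of the 7 others; Xist was the higher of the pair in 2 of 5 TD139 and 4 of 6 PBS libraries. No transcript checks a TD139 label, and whether the sex labels or the identities of libraries are at fault was not tested. The WT PBS library of mouse M20 and the dyW PBS library of mouse M15 stood apart. M20 lay at 5.1 on the first principal component of log2 expression against 36.2 to 50.3 in the other WT libraries, and its slow myosin and nerve transcripts were far above theirs. M15 had the lowest depth and lay at −53 on the second component, where the other dyW libraries lay between −17 and 21.3. Fibre markers were high throughout (Acta1 at 15000 to 32000 RPKM), and the keratinocyte markers Krt5 and Krt14 were listed at 0 in all 11 libraries.

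No gene passed the test for a TD139 difference shared by the genotypes. Of 15331 genes tested with edgeR's quasi-likelihood F-test, 0% had a Benjamini-Hochberg adjusted p under 0.05, and the smallest adjusted p was 0.344. At an unadjusted p under 0.05 there were 571 genes, 3.72% of those tested, with 244 higher under TD139 (1.59%) and 327 lower (2.13%). A separate 4-group fit tested each genotype. In dyW 0 genes passed, with 583 (3.8%) at an unadjusted p under 0.05, and in WT 0 passed, with 304 (1.98%). Asking for an unadjusted p under 0.05 in each genotype with the same sign left 35 genes (0.228%). Of these 9 were higher and 26 lower, and 0 were left after adjustment. DESeq2's Wald test, on the same counts and the same terms, called 17 genes at its adjusted p under 0.05, 4 higher and 13 lower, so the count depends on the tool.

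Across all genes the TD139 difference in dyW and that in WT had the same sign in 8128 genes, 53%. Pearson's r across genes between the 2 differences was 0.02 and Spearman's rho was 0.05. These 2 contrasts share no library, and genes are not independent replicates, so both values describe the tables. No overlap between TD139 and PBS libraries within dyW and again within WT, judged on expression after TMM scaling, was found for 46 genes that were higher under TD139 (0.3%) and 62 that were lower (0.404%). In 11 of the 15331 genes every TD139 library was above every PBS library, and in 21 of them every one was below. The design gave a median standard error of 0.18 on the log2 scale for the shared difference, 0.24 in dyW alone and 0.27 in WT alone. For 12273 genes, 80.1%, the 95% confidence interval of the shared difference lay within 1 log2 unit of 0 on both sides. The median half-width of that interval was 0.38. For most genes a shared difference of more than 2-fold thus lay outside the interval.

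**Figure D1:**
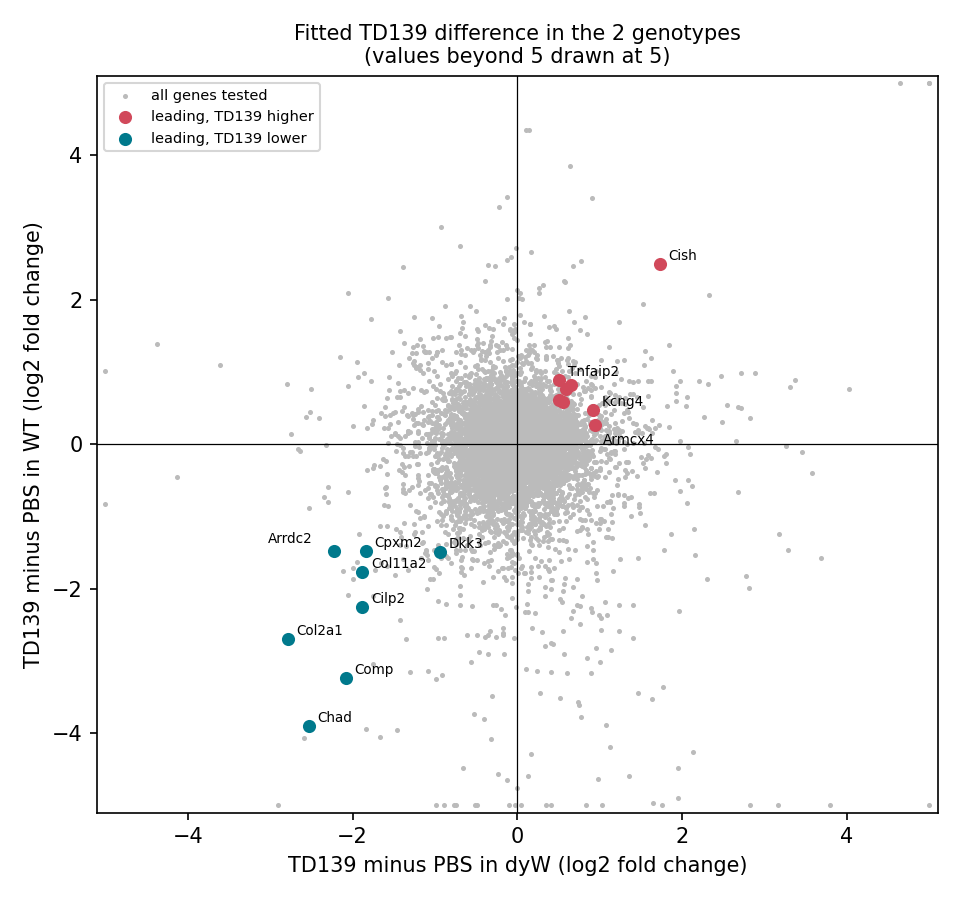
Fitted log2 fold change, TD139 minus PBS, in dyW (horizontal axis) and WT (vertical axis) for the 15331 genes tested (grey; values beyond 5 are drawn at 5), with the 8 leading genes of each direction in colour. The cloud has no tilt (Pearson's r across genes 0.02); the leading genes sit in the 2 same-sign quadrants because the rule that names them asks for it. Unlabelled red points are Slc16a6, Irgm2, Mtmr10 and Cdc14a.

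The 8 leading genes of each direction are those with the smallest p in the additive fit among genes with the same sign in both genotypes, at least 1 RPKM in a group and an established symbol. None of the 16 was called by edgeR; 9 of them were called by DESeq2. They were picked by p, so their p-values describe the ranking and add nothing to it.

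Arrdc2 led the list of lower genes. It encodes an alpha-arrestin, a membrane adaptor that helps to sort surface proteins for turnover, and its RNA is known to respond to glucocorticoids and nutrient state in muscle. Arrdc2 lies on chromosome 8 at 70835129 to 70839720 (mm10). In dyW it read 5.87, 8.20 and 13 RPKM with PBS (M15, M23, M24) and 2.18, 2.12 and 1.44 RPKM with TD139 (M16, M17, M18). In WT it read 18.3, 16.6 and 29.2 RPKM with PBS (M14, M20, M21) and 5.53 and 9.11 RPKM with TD139 (M12, M19). TD139 and PBS libraries did not overlap in either genotype, although WT TD139 M19 lay within the PBS range of dyW. The fitted difference for Arrdc2 was −1.88 log2 (SE 0.29, edgeR adjusted p 0.344), with −2.22 in dyW and −1.48 in WT. DESeq2 gave Arrdc2 an adjusted p of 1.95e-07, and edgeR with no filter beyond 1 read gave 0.0256.

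Genes of tendon and cartilage matrix made up most of the other leading lower genes. Col2a1 and Col11a2 encode chains of the cartilage collagens II and XI, Chad encodes chondroadherin, a leucine-rich cartilage protein that binds cells, and Comp encodes a pentameric matrix protein of tendon and cartilage. Col11a2 (chromosome 17, 34039437 to 34066685) read 5.46, 10.7 and 2.54 RPKM with PBS and 1.76, 1.05 and 2.16 RPKM with TD139 in dyW. In WT, Col11a2 read 8.33, 12 and 4.62 RPKM with PBS and 1.81 and 2.67 RPKM with TD139. In each genotype all PBS libraries were above all TD139 libraries, with dyW PBS M24 close to the TD139 range. The fitted difference of Col11a2 was −1.83 log2 (SE 0.33, edgeR adjusted p 0.888), and DESeq2 gave an adjusted p of 3.07e-05.

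Col2a1 (chromosome 15, 97975602 to 98004695) read 1.34, 2.62 and 0.313 RPKM in dyW PBS and 0.198, 0.0911 and 0.319 RPKM in dyW TD139. In WT, Col2a1 read 5.95, 2.26 and 1.19 RPKM with PBS against 0.375 and 0.545 RPKM with TD139. dyW PBS M24 stood at the level of the TD139 libraries and the other PBS libraries well above it. Chad (chromosome 11, 94565047 to 94569127) read 7.57, 11.2 and 1.66 RPKM in dyW PBS, 1.77, 0.269 and 1.36 RPKM in dyW TD139, 18.8, 48.5 and 4.33 RPKM in WT PBS, and 0.620 and 2.20 RPKM in WT TD139. Comp (chromosome 8, 70373558 to 70382066) read 6.43, 10.5 and 1.52 RPKM in dyW PBS, 1.64, 0.665 and 1.91 RPKM in dyW TD139, 7.25, 15.4 and 2.79 RPKM in WT PBS, and 0.277 and 1.33 RPKM in WT TD139. For Chad and Comp the groups overlapped in dyW through M24 and were separate in WT. The fitted differences were −2.74 log2 for Col2a1 (SE 0.55), −3.13 for Chad (SE 0.70) and −2.57 for Comp (SE 0.58), each with an edgeR adjusted p of 0.974.

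The remaining leading lower genes were Dkk3, which encodes a secreted protein of the Dickkopf family (−1.17 log2, SE 0.27), Cpxm2, a secreted carboxypeptidase-like protein (−1.68, SE 0.39), and Cilp2, a cartilage intermediate layer protein (−2.05, SE 0.48). Dkk3 read 2.67, 3.31 and 1.67 RPKM in dyW PBS, 1.45, 1.29 and 1.12 RPKM in dyW TD139, 1.68, 3.36 and 1.01 RPKM in WT PBS, and 0.522 and 0.781 RPKM in WT TD139. Its groups did not overlap within either genotype. After TMM scaling this held for 5 of the 8 leading lower genes (0.404% of all genes), which the ranking by p favours.

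Leading higher genes other than Cish differed by 0.55 to 0.72 log2. Mtmr10 encodes a myotubularin-related protein, and Tnfaip2 is a gene induced by tumour necrosis factor. Tnfaip2 (chromosome 12, 111442469 to 111455018) read 25.5, 22.8 and 14.8 RPKM in dyW PBS, 25.1, 27.6 and 33.5 RPKM in dyW TD139, 16.3, 14.1 and 12.3 RPKM in WT PBS, and 24.3 and 25.4 RPKM in WT TD139. After TMM scaling it was 1 of the 11 genes with every TD139 library above every PBS library, while in RPKM M15 lay inside the TD139 range. Its fitted difference was 0.68 log2 (SE 0.15, edgeR adjusted p 0.974; DESeq2 adjusted p 0.0196). Mtmr10 (chromosome 7, 64287653 to 64340806) read 2.22, 1.57 and 1.62 RPKM in dyW PBS, 2.56, 2.86 and 2.19 RPKM in dyW TD139, 1.73, 1.99 and 1.60 RPKM in WT PBS, and 2.11 and 2.89 RPKM in WT TD139. Its difference was 0.57 log2 (SE 0.12, edgeR adjusted p 0.974; DESeq2 adjusted p 0.0184), nearly the same in dyW (0.55) as in WT (0.59).

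Kcng4 encodes a silent subunit that modifies voltage-gated potassium channels. It read 1.70, 2.05 and 1.55 RPKM in dyW PBS, 2.92, 3.04 and 3.84 RPKM in dyW TD139, 2.98, 2.14 and 2.85 RPKM in WT PBS, and 3.69 and 3.31 RPKM in WT TD139, with no overlap in either genotype (0.72 log2, SE 0.16). Slc16a6, a carrier of the monocarboxylate transporter family, read 3.38, 4.13 and 2.69 RPKM in dyW PBS, 4.18, 4.15 and 5.70 RPKM in dyW TD139, 3.06, 3.96 and 3.86 RPKM in WT PBS, and 5.16 and 5.21 RPKM in WT TD139 (0.55 log2, SE 0.13). Each TD139 library was above the PBS libraries of its own genotype for both genes, by a narrow margin for Slc16a6 in dyW. Armcx4 (0.64 log2, SE 0.17), Irgm2, an interferon-inducible GTPase (0.67, SE 0.18), and Cdc14a, a dual-specificity phosphatase (0.72, SE 0.20), completed the group, and their TD139 and PBS libraries overlapped in at least 1 genotype.

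Cish had the largest fitted difference among the leading higher genes, 2.08 log2 (SE 0.54, edgeR adjusted p 0.974). It encodes a feedback inhibitor of cytokine and growth hormone signalling that is induced through STAT5. In dyW the PBS libraries read 0.622, 1.08 and 0.617 RPKM and the TD139 libraries 1.78, 3.55 and 2.28 RPKM, so the groups were separate. In WT the PBS libraries read 0.724, 1.12 and 1.66 RPKM, while the TD139 libraries read 11.7 (M12) and 0.576 RPKM (M19). The WT value thus rested on 1 library, and without M12 the shared difference of Cish was 1.04.

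**Figure D2:**
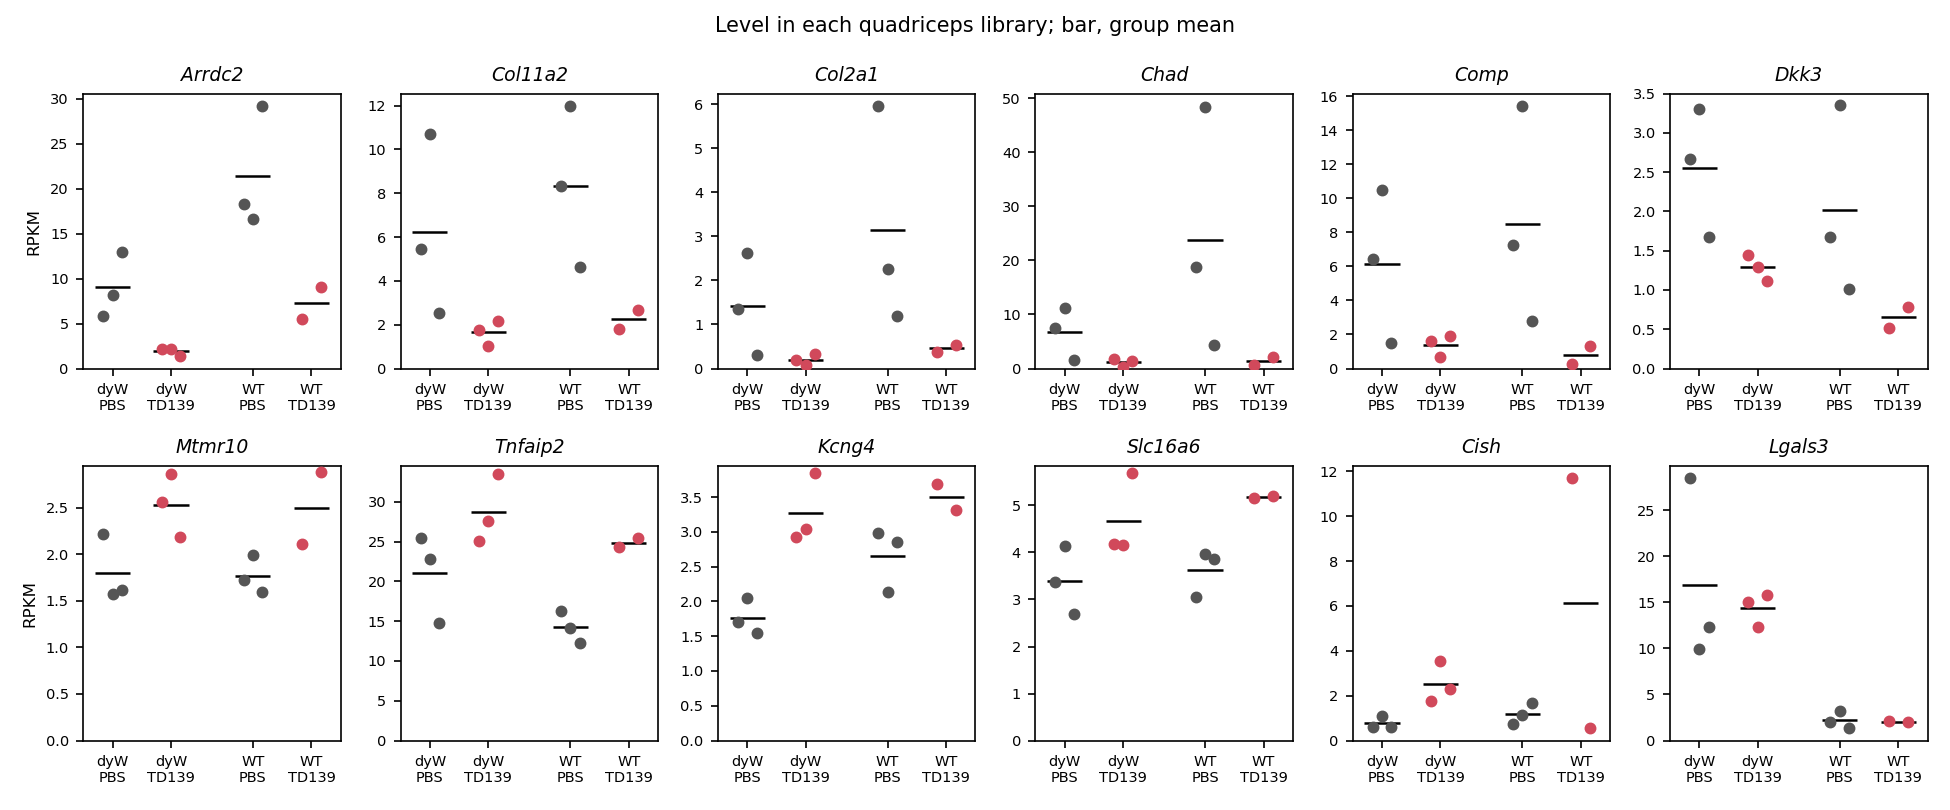
RPKM in each of the 11 libraries (points; grey PBS, red TD139) and group mean (bar) for 6 leading lower genes, 5 leading higher genes and Lgals3, with each axis starting at 0. The TD139 points of Arrdc2 lie below the PBS points within each genotype, the lowest dyW PBS point of Chad and Comp lies among the TD139 points, and 1 WT TD139 library carries Cish.

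DESeq2 called 8 further genes in the additive comparison, singled out here because it called them and given with its log2 values. Those lower under TD139 were Matn4, a matrilin of cartilage (−1.88 log2, DESeq2 adjusted p 0.00189), Rnf112 (−1.75, DESeq2 adjusted p 0.0155), 1500015O10Rik (−1.91, DESeq2 adjusted p 0.0155), Adgrg2 (−1.24, DESeq2 adjusted p 0.0287), Clec11a (−1.42, DESeq2 adjusted p 0.0453) and Rab27a (−0.83, DESeq2 adjusted p 0.0496). Pde2a_2 (1.21) and Kcnf1, a modifier subunit of potassium channels (0.88), were higher, each with a DESeq2 adjusted p of 0.0496. Pde2a_2 is a gene model that overlaps Pde2a_1 on the chromosome, so its count is uncertain. Matn4 read 0.894, 1.07 and 0.214 RPKM in dyW PBS, 0.181, 0.101 and 0.242 RPKM in dyW TD139, 0.597, 0.999 and 0.364 RPKM in WT PBS, and 0.196 and 0.164 RPKM in WT TD139. As with Chad and Comp, dyW PBS M24 was the PBS library nearest to the TD139 levels. Within a genotype DESeq2 called 4 genes in dyW (Arrdc2, Kbtbd13, Col11a2 and Armcx4) and 3 in WT (Socs2, Ikzf4 and Myh7), with none in common.

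The disease difference of the leading genes was read in the 7 libraries of the other cohort, which share none with the comparison. There 24.7% of genes were higher and 25.1% lower in dyW than in WT at an edgeR adjusted p under 0.05. Of the 8 genes leading higher under TD139, 7 were lower in dyW in that cohort and 0 were higher. Kcng4 was −3.05 log2 in dyW (edgeR adjusted p 0.000255), Cdc14a −1.86 (edgeR adjusted p 0.00161) and Mtmr10 −1.01 (edgeR adjusted p 0.00331), while Cish did not pass (−0.96, edgeR adjusted p 0.323). Of the 8 leading lower genes, 2 were lower in dyW and 2 were higher. Arrdc2 was −1.95 (edgeR adjusted p 0.0254) and Col2a1 −1.59 (edgeR adjusted p 0.0331), against 1.38 for Comp (edgeR adjusted p 0.0338) and 0.89 for Dkk3 (edgeR adjusted p 0.0401).

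Lgals3, the transcript of the drug's target, did not separate TD139 from PBS. It read 28.5, 9.90 and 12.3 RPKM in dyW PBS and 15, 12.3 and 15.8 RPKM in dyW TD139. In WT it read 2.00, 3.23 and 1.31 RPKM with PBS and 2.08 and 1.99 RPKM with TD139. The highest value belonged to M15, and the groups overlapped in each genotype. The fitted difference was −0.08 log2 (SE 0.23, edgeR adjusted p 0.988). An exact two-sided permutation test within genotype over 200 assignments gave p = 0.925. Its statistic, 0.02 log2, is the mean of the dyW and WT differences in log2 level and so differs from the fitted value. Of 14 tested genes of galectins and galectin-3 partners, 1 was higher (Lgalsl, 0.36) and 1 lower (Mertk, a receptor for the clearance of dead cells, −0.46) at an unadjusted p under 0.05.

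Gene lists were read by counts and medians, beside a median of 0 over all genes tested and the shares of 1.59% higher and 2.13% lower at an unadjusted p under 0.05. No member of the 48 lists passed the adjusted threshold, and 20 lists had no member at an unadjusted p under 0.05. The median was of opposite sign in dyW and WT in 19 lists, negative in both in 15 and positive in both in 14.

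**Figure D3:**
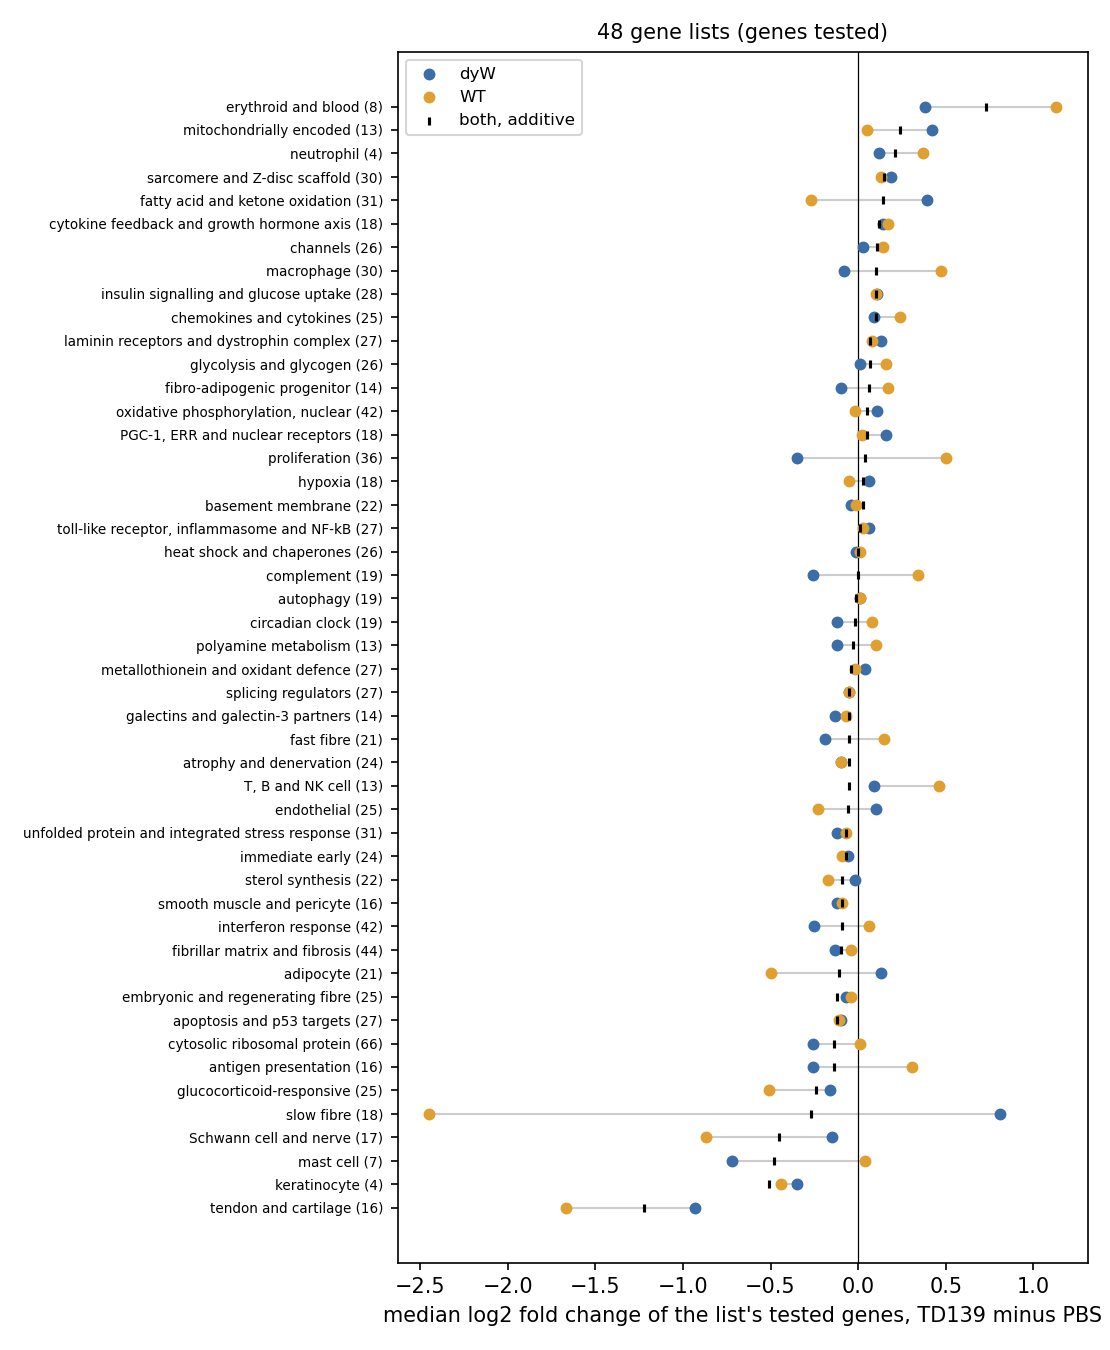
Median log2 fold change, TD139 minus PBS, of the tested genes of each of 48 lists (number tested in brackets), in dyW (blue), in WT (orange) and in the additive fit (black tick). Tendon and cartilage genes have the lowest additive median, −1.22, with both genotypes below 0, while slow fibre genes lie at 0.81 in dyW and −2.45 in WT.

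The tendon and cartilage list had the median furthest from 0. Tendon is made of parallel collagen laid down by tenocytes, which depend on the transcription factor Scx and carry the surface protein Tnmd. Of 16 genes tested, 10 were lower at an unadjusted p under 0.05 (background 2.13%) and 0 were higher; the median difference was −1.22 log2, with −0.93 in dyW and −1.67 in WT, and 13 of the 16 were negative in both genotypes. Tnmd read 51.8, 56.6 and 14.7 RPKM in dyW PBS, 28.9, 14.7 and 16.4 RPKM in dyW TD139, 23.2, 27.6 and 28 RPKM in WT PBS, and 3.49 and 15.3 RPKM in WT TD139 (−1.15 log2). Scx differed less (−0.42) and ranged from 4.67 to 11.5 RPKM with TD139 and from 5.68 to 15.3 RPKM with PBS, with overlap in dyW. In bulk muscle, fewer cells of a type and less RNA per cell cannot be told apart, and the part of the amount of tendon in each sample was not tested.

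Summed over the list, tendon and cartilage RPKM was 546, 646 and 316 in dyW PBS and 386, 239 and 338 in dyW TD139, so M24 was below 2 of the 3 TD139 libraries. In WT the sums were 210, 363 and 163 with PBS and 37.5 and 118 with TD139, without overlap. The count of lower genes was 9 without M20 and M15, where 313 of all genes were lower, against 327 with all libraries. The 7 libraries with a male sex label were also fitted, of which M14, M18, M19, M20 and M24 had Xist above Ddx3y. In that fit Tnmd was −0.52 and Fmod −1.05, against −1.15 and −1.96 with all libraries. In the fibrillar matrix and fibrosis list 6 of 44 genes were lower at an unadjusted p under 0.05, 0 were higher and the median was −0.10. That count in the fibrillar matrix and fibrosis list was 3 without M15, dyW PBS M23 or dyW TD139 M17. All genes lower in those fits numbered 231, 321 and 198. The list's count was 1 without both M20 and M15. Fmod, which encodes the collagen-binding fibromodulin and belongs to both lists, was −1.96, and Col1a1, the main collagen I chain, was −0.82. Loxl3, a collagen cross-linking oxidase, was −0.55 and Bgn, the small proteoglycan biglycan, was −0.53. Sparc, a collagen-binding protein of remodelling matrix that is also in the basement membrane list, was −0.45. Col1a1 read 475, 600 and 184 RPKM in dyW PBS, 206, 198 and 325 RPKM in dyW TD139, 269, 710 and 251 RPKM in WT PBS, and 134 and 253 RPKM in WT TD139, with overlap in both genotypes.

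Glucocorticoid-responsive genes had the next highest number of lower members. Glucocorticoids act on muscle through a nuclear receptor that induces genes of fuel saving and protein breakdown. Of 25 tested, 7 were lower at an unadjusted p under 0.05, 0 were higher, 23 had a negative difference and the median was −0.24 (dyW −0.16, WT −0.51). Beside Arrdc2 these included Per1, a clock gene with a glucocorticoid-induced promoter (−0.75), Ddit4, an inhibitor of mTORC1 (−0.81), and Angptl4, an inhibitor of lipoprotein lipase (−0.94). Ddit4 read 7, 12.2 and 15.9 RPKM in dyW PBS, 6.43, 6.02 and 7.14 RPKM in dyW TD139, 6.67, 17.4 and 16.2 RPKM in WT PBS, and 6.82 and 7.63 RPKM in WT TD139. The TD139 libraries were all low and alike, while 1 PBS library of each genotype was as low. The other 3, named because the count is small, were Tsc22d3, a classical glucocorticoid target (−0.56), the cell cycle inhibitor Cdkn1a (−0.46) and the transcription factor Foxo1 (−0.46). The count was 11 without M15 and 11 without both M15 and M20, where 231 and 313 of all genes were lower. It was 3 without dyW PBS M24 (383 of all genes) and 4 without dyW TD139 M17 (198), against 327 with all libraries. The median level of the list overlapped in both genotypes. dyW PBS M15 (−0.43) was below all dyW TD139 libraries, and WT PBS M14 (−0.40) was below WT TD139 M19 (−0.02).

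**Figure D4:**
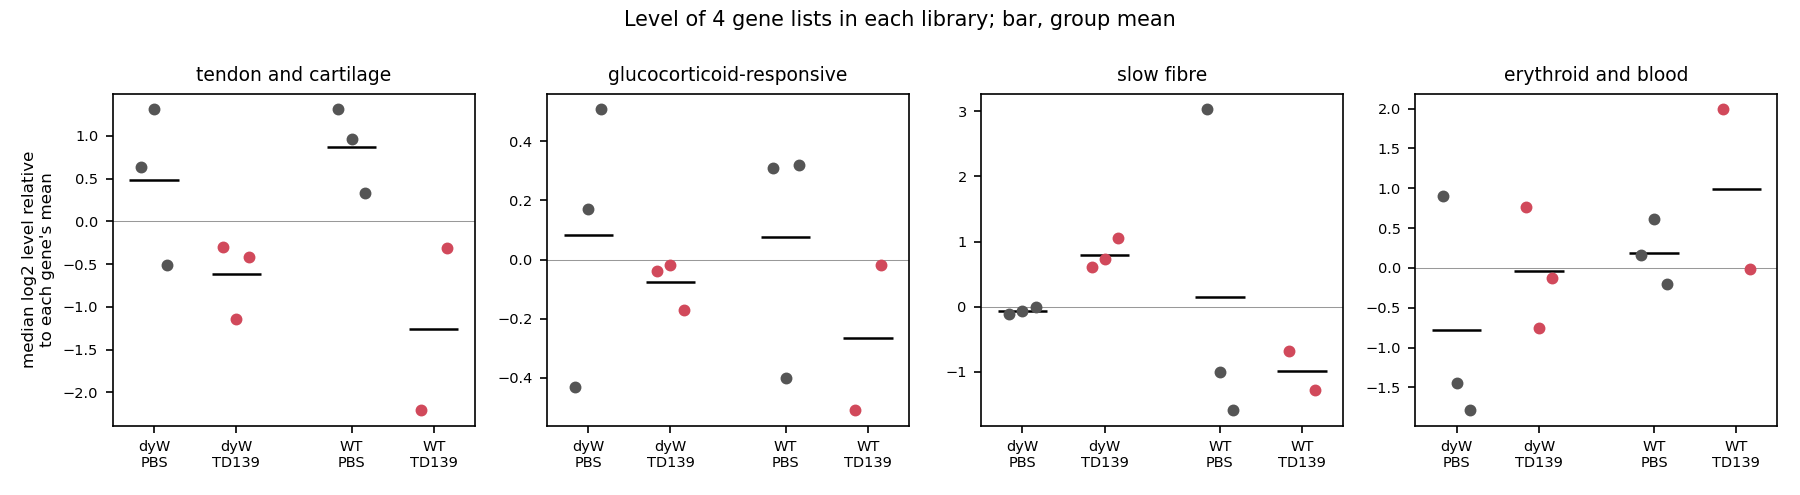
Median log2 level of the tested genes of 4 lists in each library (points; grey PBS, red TD139), relative to each gene's mean over the 11 libraries, with the group mean as a bar. Tendon and cartilage levels are lower under TD139 apart from the lowest dyW PBS library, and glucocorticoid-responsive levels overlap in both genotypes. The slow fibre level of 1 WT PBS library is at 3.04 against −1.59 to 1.05 in the others, and blood genes vary widely within groups.

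Related genes of fasting and fuel use went several ways. In the fatty acid and ketone oxidation list 3 of 31 were lower at an unadjusted p under 0.05 and 1 was higher. Among the lower, Angptl4 was −0.94 log2 and Ucp3, an uncoupling protein of muscle, was −0.69, while Oxct1, which lets tissue burn ketones, was 0.35. Median values were 0.39 in dyW and −0.27 in WT. Among insulin signalling and glucose uptake genes, Igfbp3, a binding protein for insulin-like growth factors, was −0.52 and Irs1, the insulin receptor substrate, was 0.34. Igfbp3 read 23.2, 30.3 and 17.5 RPKM in dyW PBS, 17.6, 14.8 and 15.9 RPKM in dyW TD139, 17.6, 20.9 and 18.2 RPKM in WT PBS, and 12 and 12.5 RPKM in WT TD139. It was 1 of the 21 genes with every TD139 library below every PBS library after TMM scaling, although the dyW ranges touch in RPKM. Pdk4, which blocks glucose oxidation, was −1.08 (SE 0.55) with PBS libraries between 24.1 and 264 RPKM. In the circadian list of 19, Per1 and Nfil3 (−0.33) were the 2 lower genes at an unadjusted p under 0.05.

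Cytokine feedback genes had 4 of 18 members higher at an unadjusted p under 0.05 (background 1.59%) and 0 lower, with a median of 0.12. SOCS proteins shut off the receptors that induced them. The 4 were Cish, Socs2 (0.63 log2), Socs3 (0.65) and Socs1 (1.12). In dyW and in WT, Socs2 was 0.13 and 1.23, Socs3 was 0.82 and 0.43, and Socs1 was 0.26 and 2.16. Socs1 read 3.22, 2.42 and 0.935 RPKM in dyW PBS, 2.09, 2.49 and 2.84 RPKM in dyW TD139, 1.10, 0.963 and 0.646 RPKM in WT PBS, and 6.79 (M12) and 0.740 RPKM (M19) in WT TD139. In WT, M12 was above the PBS libraries and M19 within their range for Socs1, while for Cish M19 was below all of them. Without M12 Socs1 was 0.12. The count was 2 without dyW PBS M24, dyW TD139 M17, dyW TD139 M18 or WT PBS M21. All genes higher in those fits numbered 303, 132, 283 and 274, against 244 with all libraries. The summed level of blood genes was also highest in M12, at 4340 RPKM against 323 to 2430 in the other libraries, and its part in the Cish and Socs1 values was not tested. Of 8 blood genes, Slc4a1, the red cell anion exchanger, was higher (1.44) and Epor, the erythropoietin receptor, lower (−0.63) at an unadjusted p under 0.05.

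Immune lists gave few members in either direction. Of 30 macrophage genes 3 were higher and 1 lower at an unadjusted p under 0.05. Mrc1, the mannose receptor, was 0.35 log2, Cd84 0.70 and Mpeg1, a pore-forming protein of phagocytes, 0.47, while Mertk was −0.46. The summed macrophage level was 246 to 614 RPKM in dyW PBS, 318 to 406 in dyW TD139, 97.3 to 105 in WT PBS and 95.8 to 143 in WT TD139. Without M15, the highest of these, 11 macrophage genes were higher (1.53% of all genes in that fit) and 0 lower, and the dyW median turned from −0.08 to 0.30. The higher count was 0 without WT PBS M20, dyW PBS M23 or dyW PBS M24. All genes higher in those fits numbered 636, 140 and 303, against 244 with all libraries. Among 27 genes of Toll-like receptor and NF-kB signalling, Tnfaip3, which ends NF-kB signalling, was 0.51, Tlr8 was 0.88 and Nfkbia, the NF-kB inhibitor, was −0.27. Nfkbia was low in every TD139 library of either genotype against the PBS libraries, after TMM scaling. Il33, an alarmin, was 0.43 and was the 1 chemokine or cytokine of 25 at an unadjusted p under 0.05. Irgm2, given above among the leading higher genes, is not in the interferon response list. No interferon response gene of the 42 listed and no antigen presentation gene of 16 reached an unadjusted p under 0.05. Cd59a, which protects cells from complement, was −0.32 and the 1 of 19 complement genes at that level. Of 13 genes of T, B and NK cells, 6 had a positive and 7 a negative difference, and the median was −0.05 (dyW 0.09, WT 0.46). Its 2 members at an unadjusted p under 0.05 were Lck (−0.81) and Cd4 (−0.54), both lower, with every library at 0.459 RPKM or less.

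Stress and wasting genes held a handful of lower members. Nupr1, a stress-induced chromatin protein, was −0.69 log2 (SE 0.17) and Chac1, a glutathione-degrading enzyme induced by ATF4, was −1.13 (SE 0.34). These were the 2 of 31 genes of the unfolded protein and integrated stress response at an unadjusted p under 0.05. Nupr1 read 10.7, 6.36 and 5.67 RPKM in dyW PBS, 4.84, 5.26 and 3.52 RPKM in dyW TD139, 5.86, 7.78 and 3.99 RPKM in WT PBS, and 3.52 and 3.03 RPKM in WT TD139, without overlap in either genotype. Among 27 apoptosis and p53 target genes, Phlda3 (−0.48), Cdkn1a (−0.46) and Perp (−0.68) were lower and Ccng1 (0.33) was higher. In the atrophy and denervation list of 24, 4 were lower, Uchl1, a deubiquitinase (−0.75), among them, and Acvr2b, the myostatin receptor (0.91), was higher. The lower count in the atrophy and denervation list was 1 without dyW TD139 M17 and 2 without dyW PBS M24 or dyW TD139 M18. All genes lower in those fits numbered 198, 383 and 253, against 327 with all libraries. Azin1, the antizyme inhibitor that protects ornithine decarboxylase, was 0.36 and Sod2, the mitochondrial superoxide dismutase, was 0.27. Their groups were separate in both genotypes only after TMM scaling, since in RPKM the WT groups overlapped.

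Structural and vascular lists had few members at an unadjusted p under 0.05. Myl4, the embryonic myosin light chain, was −0.48 and the 1 of 25 regeneration genes at an unadjusted p under 0.05. In the laminin receptor and dystrophin complex list of 27, Sgcd (0.73 log2) and Dtna (0.35) were higher and Sgce (−0.26) lower at an unadjusted p under 0.05; these encode delta-sarcoglycan, alpha-dystrobrevin and epsilon-sarcoglycan. Endothelial genes Esam (−0.33), Cldn5 (−0.48) and Angpt2 (−0.42) were the 3 lower of 25. The potassium channel genes Kcnj2 (0.67) and Kcna5 (−0.56) went in opposite directions. Of 13 mitochondrially encoded genes 12 had a positive difference, with a median of 0.42 in dyW and 0.05 in WT, and mt-Atp8 (0.33) was the 1 at an unadjusted p under 0.05. Cytosolic ribosomal protein genes had a negative difference in 64 of 66, a median of −0.14 and 0 members at an unadjusted p under 0.05. Their median was −0.26 in dyW and 0.01 in WT, with the same sign in both genotypes for 28 of 66. Rpl27 had the smallest p (−0.32).

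Genes whose TD139 difference was least alike in the genotypes were also read, since they bound what is shared. No gene passed the test of the difference between the dyW and WT effects with edgeR. At an unadjusted p under 0.05 there were 294 (1.92%), and DESeq2 called 1, Myh7. Slow fibre genes stood at a median of 0.81 in dyW and −2.45 in WT, and 0 of 18 had the same sign in both. Myh7, the slow myosin heavy chain, read 2.06, 2.70 and 0.426 RPKM in dyW PBS, 6.30, 19.8 and 44.0 RPKM in dyW TD139, 0.0638, 442 and 0.0207 RPKM in WT PBS, and 0.0734 and 0.0361 RPKM in WT TD139. The value of 442 belongs to M20, as does 386 RPKM of its partner light chain Myl2, against 0.130 to 0.752 RPKM in the other WT libraries. Without M20 the slow fibre median was 0.30 in WT and 0.64 in the additive fit, and 13 of 18 genes were then higher at an unadjusted p under 0.05, against 4.17% of all genes in that fit. Without both M20 and M15 the number was 10, where 498 of all genes were higher. M20 is the PBS library with the highest slow fibre level, so leaving it out by itself raises the TD139 difference of this list. Among the slow fibre genes Atp2a2, the slow calcium pump, turned from −0.54 to 0.55 and Tpm3, slow tropomyosin, from −0.58 to 0.48 without M20. M20 also had the highest Schwann cell level, 874 RPKM summed against 45.7 to 179 RPKM. The additive difference of Prx, periaxin of the myelin sheath, was −0.66.

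Other genes stood at the ends of this ranking. Kbtbd13 is a kelch protein of muscle linked to nemaline myopathy. It read 2.20, 2.69 and 2.60 RPKM in dyW PBS and 5.27, 5.03 and 4.58 RPKM in dyW TD139. In WT it read 3.41, 5.65 and 2.89 RPKM with PBS (M14, M20, M21) and 3.62 and 3.93 RPKM with TD139. Both WT TD139 libraries were thus above M14 and M21 and below M20, so the WT value depends on M20. Kbtbd13 was 1.02 log2 in dyW and 0.05 in WT, a difference of 0.97 (SE 0.30, edgeR adjusted p 1). Dio2, the enzyme that activates thyroid hormone, was 1.12 in dyW and −0.78 in WT. Cpxm1, a secreted carboxypeptidase-like protein, was −0.84 in dyW and 0.54 in WT. Socs2 was 0.13 in dyW and 1.23 in WT, Pim1, a kinase induced by cytokines, was −0.72 and 0.56, and Lyz1, a lysozyme, was −1.23 and 1.26. Each of these had an edgeR adjusted p of 1 for the difference. Ikzf4, an Ikaros-family transcription factor, which DESeq2 called in WT, read 0.681 and 0.240 RPKM in WT TD139 and 0.0763 to 0.181 RPKM in the other libraries.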

How the data were processed

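Whole quadriceps RNA of 11 mice was compared by the genotype and treatment in their labels. The deposited count columns (total and unique exon reads per gene) and the RPKM that the authors computed from them come from per-library tables, mapped to mm10 per the submitters' processing notes; the aligner and counting tool are not given in the sources used here. Separate deposited tables of the authors' own comparisons were not used. Total counts were fitted with edgeR 4.0.16 (R 4.3.3): filterByExpr (minimum count 10, minimum total 15), TMM, quasi-likelihood F-test, Benjamini-Hochberg adjustment, threshold 0.05. The additive fit had treatment and genotype as terms, and a 4-group fit gave each genotype's contrast and their difference. Precision follows the spread between mice, at 15.8 to 42.6 M exon reads per library. RPKM was used to show levels and is not corrected for composition.

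Named genes are Lama2 and Lgals3, 8 leading genes per direction, up to 4 per list with the smallest p and 4 per direction for the difference between effects; Scx, Tnmd and Prx come from the marker list, and further genes that DESeq2 called, or that completed a small count, were picked once their values were known. A few genes that this rule names are not reported here. Members, the 48 lists and tests were chosen with earlier results of these data known. Alternatives were DESeq2 1.42.0, limma 3.58.1 on log2(RPKM + 0.1) and log2(RPKM + 1), RLE size factors, no filter, unique reads, other terms and sets of libraries, and each library left out; leaving out M20 and M15 together, and Xist above Ddx3y as a term, were added after seeing the data. The fit was tested on simulated data. Nothing in the labels pairs mice.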

Additional observations from a re-analysis of the deposited data

Results flagged for a closer look

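Cpxm1 was the gene named in the text for which every TD139 library lay on one side of the PBS libraries in dyW and on the other side in WT. In dyW it read 13.4, 10.6 and 6.11 RPKM with PBS and 5.41, 5.17 and 5.53 RPKM with TD139. In WT it read 3.46, 2.45 and 2.91 RPKM with PBS and 4.16 and 3.97 RPKM with TD139. The dyW effect minus the WT effect was −1.38 log2 (SE 0.35), and this difference did not pass edgeR's test (adjusted p 1). No group of the treatment cohort had the 4 libraries needed to look for a library far from the others in its group.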

How the results depend on the processing

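The additive count of 0 stayed 0 in all but 2 of 25 other settings: DESeq2 called 17 genes, and edgeR with no filter beyond 1 read called 1, Arrdc2. Among the 25, a cutoff of 0.5 log2 applied to the main fit could only return 0 and left every log2 value as it was. DESeq2 also called 4 genes in dyW, 3 in WT and 1 for the difference between effects, against 0 by edgeR in each; the cause was not tested. Leaving out each library in turn gave 0 calls throughout, while genes at an unadjusted p under 0.05 ranged from 330 (without dyW TD139 M17) to 1704 (without WT TD139 M12), with 1084 without WT PBS M20. Without M20 and M15 together there were 811, and with Xist above Ddx3y as a term 538. None of the 16 leading genes changed sign, which their choice by small p and by the same sign in both genotypes favours. Of 2324 values of 93 followed genes under other settings, 32 had the other sign, and the cause of each was not tested. Without 1 library at a time, Myh7 (1.44 with all) ranged from −3.40 to 3.17, Myl2 (0.73) from −2.04 to 2.66, Tpm3 (−0.58) from −0.93 to 0.48, Atp2a2 (−0.54) from −0.90 to 0.55, Prx (−0.66) from −0.87 to 0.14, Lgals3 (−0.08) from −0.22 to 0.20 and Lyz1 (0.01) from −0.56 to 0.37. With equal weight of the genotypes Myh7 was −3.65 and Myl2 −2. With no genotype term Myh7 was −2.50, Myl2 −2.20, Lama2 −0.18 (0.22 with the term) and Lgals3 0.07. With the sex label as a term Lgals3 was 0.01 and Lyz1 −0.02; Lyz1 was −0.04 with DESeq2 and −0.15 with limma on log2(RPKM + 0.1). Without M20 and M15 Tpm3 was 0.49, Atp2a2 0.50, Prx 0.13 and Lgals3 0.33. No paired analysis was possible because each library carries its own animal number and the groups share none. Leaving out 1 of the 2 WT TD139 libraries assumes that the other varies like the remaining groups.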
